A study of Mus musculus with 8 samples.

Results

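The 35 genes described here are the cadherins and the non-clustered protocadherins, chosen by symbol: Cdh or Pcdh followed only by a number, plus Pcdh11x. There were 23 cadherins and 12 protocadherins among the 24421 genes of the count tables. No measured value enters that rule, but the family was taken up with its change between Ubc9-depleted and control libraries known, so counts over its members are given as a description. RNA-seq was carried out on mouse embryonic stem (ES) cells kept in 2i/LIF, a medium that holds ES cells in a ground state, for 3-4 passages, with 2 libraries in each of 4 groups. The Ubc9-depleted cells, of line v6.5, had received DOX for 72 hours to deplete Ubc9, the only E2 enzyme of SUMO conjugation, and were set against Ubc9-WT cells of the same line; the labels do not say whether these controls received DOX, nor by what construct Ubc9 was depleted. H1-TKO cells lack the linker histone genes Hist1h1c, Hist1h1d and Hist1h1e and were set against H1_WT cells, both lines coming from an earlier publication. Nothing in the labels says whether a line is 1 clone, or whether libraries within a group are of separate cultures, so p-values measure only the spread between libraries.

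Cadherins are membrane proteins that hold neighbouring cells together through calcium-dependent binding of their extracellular repeats. Classical cadherins (type I and type II) bind beta-catenin and p120-catenin through their cytoplasmic tail, and alpha-catenin links the complex to actin; ES cells adhere mainly through Cdh1, E-cadherin. Non-clustered protocadherins, of which the delta-1 and delta-2 groups are the largest, lack the catenin-binding tail and are best known from the developing nervous system. Many family members mark a tissue: Cdh2 (N-cadherin) neural and mesenchymal cells, Cdh5 (VE-cadherin) endothelium, Cdh15 (M-cadherin) muscle and Cdh16 kidney.

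Total counts ran from 44441713 to 102780141 per library, and 3 counts was taken as the most that a count of 0 allows. Levels are in CPM, read counts scaled to a common library size, after TMM scaling within a table. Hist1h1c, Hist1h1d and Hist1h1e had 0 counts in both H1-TKO libraries and 1.64 to 4.48 CPM in the controls. Ubc9-depleted library 1 stood apart: 23462 genes had a count there. The other 3 libraries of that table had 18584 to 19591 such genes, and the 4 H1 libraries 15994 to 17628. Results for the depleted cells are therefore given with both libraries and with library 2 alone against the controls. All 8 markers of ES cells were present in every library, with summed levels of 4736 to 5343 CPM in the Ubc9 table and 6026 to 11322 CPM in the H1 table.

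In control cells the family was almost entirely Cdh1. Divided by exonic length, Cdh1 held 95.7% of the family's signal in Ubc9-WT cells and 97.8% in H1_WT cells, and this share was 87.8% in Ubc9-depleted and 89.8% in H1-TKO cells. On the scale of CPM per kilobase, Cdh1 stood at 200 in Ubc9-WT cells, followed by Cdh3 at 4.06, Pcdh19 at 1.84, Cdh4 at 1.37 and Cdh2 at 0.657. In H1_WT cells the order was Cdh1 at 221, Cdh24 at 1.51, Cdh3 at 1.10 and Pcdh19 at 1.03, and in H1-TKO cells Cdh4 came next after Cdh1, at 4.81 against 93.3. At the other end, 23 members had a mean of at most 10 counts over the Ubc9-WT libraries. They are called near-silent below and the other 12 measurable, a division made after the values were seen. Cdh12, with 10 and 9 counts, lies just inside the limit and Cdh6, with 19 and 25, just outside it.

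In Ubc9-depleted cells Cdh1 fell while Cdh3 and Cdh4 rose, and members that were close to silent in the controls gained counts, to very different degrees in the 2 depleted libraries. Of the 26 members that passed the filter on low counts, 18 rose and 2 fell by edgeR's quasi-likelihood test, at a threshold of 0.05 after Benjamini-Hochberg adjustment over 16499 genes. Of all genes tested, 21.1% rose and 15.0% fell. Among the 26 members, 14 were near-silent in the controls, and these hold 12 of the 18 rises. Such members pass the filter largely through the depleted libraries, where they are high, so the family counts are a description. Without depleted library 1, 9 rose and 2 fell of 25 tested, beside 19.0% and 15.3% of all genes. The calls that both fits share are Cdh3, Cdh4, Cdh6, Cdh9, Cdh19, Cdh20, Pcdh8 and Pcdh17 among the higher and Cdh1 and Pcdh19 among the lower; Cdh12 missed the threshold with both libraries and passed without library 1 (adjusted p = 0.0207, edgeR). Only the calls of Cdh3, Cdh4, Pcdh8 and Pcdh17 held whichever of the 4 libraries was left out. Without Ubc9-WT library 1, 9 of the 20 calls were kept, and without Ubc9-WT library 2, 7 were kept; in those fits the spread comes from the depleted pair alone. Leaving out depleted library 2 kept 19. By DESeq2 the calls of Cdh2, Cdh9, Cdh10, Cdh18, Cdh26 and Pcdh19 were lost, and 13 of the 20 calls held under DESeq2, RLE factors, library totals and no filter on low counts alike.

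Among the 12 measurable members, 6 rose, 2 fell and 4 did not pass, where 21.1% of all genes tested rose and 15.0% fell. The median log2 fold change of these members was 0.62, against 0.061 over all genes tested. Without depleted library 1 the medians were 0.44 and -0.0051. Type I cadherins led this group in level. Cdh1, the main adhesion receptor of ES cells, had 895 and 938 CPM in the Ubc9-WT libraries and 533 and 629 CPM in the depleted ones. Both depleted libraries lay below both controls. The means were 916 ± 30.3 and 581 ± 67.3 CPM (SD, n = 2), a log2 fold change of -0.66 ± 0.13 (SE; adjusted p = 3.06e-04, edgeR). The call was lost when either control library was left out (adjusted p = 0.219 without library 1 and 0.311 without library 2, edgeR), though not the direction. In bulk RNA, fewer cells with a transcript and less of it per cell cannot be told apart.

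Cdh3, P-cadherin, named for the placenta, is the neighbour of Cdh1: in GRCm38 it spans chr8:106510891-106557297 and Cdh1 spans chr8:106603351-106670246, both on the plus strand, 46053 bases apart. These neighbours moved in opposite directions. Cdh3 had 17.4 and 18.3 CPM in the Ubc9-WT libraries and 36.7 and 38.9 CPM in the depleted ones, so the groups were well apart and the pairs close together. Its log2 fold change was 1.09 ± 0.11 (SE; adjusted p = 4.38e-09, edgeR) and 1.12 with depleted library 2 alone. Summed levels of the 8 trophectoderm markers were 100 and 109 CPM in the controls and 70.3 and 70.6 CPM after depletion. Tfap2a made up most of this, at 82.8 and 90.3 against 50.2 and 54.0 CPM. On the log2 scale Tfap2a, Cdx2 and Gata3 fell by 0.73, 0.99 and 0.67 (adjusted p = 1.23e-05, 0.00849 and 0.0337, edgeR). Ascl2 rose by 0.83 (adjusted p = 0.0212, edgeR), and the rest had no call. The part of these markers in the result was not tested.

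Cdh4 (R-cadherin, first described in retina), at chr2:179442431-179899373 in GRCm38, had 9.85 and 10.1 CPM in the controls and 16.2 and 17.5 CPM after depletion, again without overlap. Its log2 fold change was 0.76 ± 0.11 (SE; adjusted p = 4.96e-06, edgeR). Cdh2, N-cadherin, had 4.86 and 5.75 CPM in the controls and 8.64 and 6.10 CPM in the depleted libraries. The 2 depleted libraries lay above the controls, but library 2 only by a little. The log2 fold change of 0.48 ± 0.17 (SE) passed the test with both (adjusted p = 0.0317, edgeR), and that of 0.20 without depleted library 1 did not (adjusted p = 0.395, edgeR), nor did it pass with either control left out or by DESeq2 (adjusted p = 0.305). The 8 neural markers summed to 97.8 and 92.5 CPM in the controls and 93.4 and 88.5 CPM after depletion, with Neurog2 and Dcx at 0 in some libraries. Nes and Tubb3 made up most of that sum. On the log2 scale Elavl3 rose by 1.41 and Tubb3 fell by 0.55 (adjusted p = 9.32e-05 and 3.35e-04, edgeR), and the rest had no call. The 8 fibroblast markers summed to 18.0 and 17.8 CPM against 36.7 and 34.8, with none at 0. The part of either list in the results for Cdh2 and the other members was not tested.

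**Figure D1:**
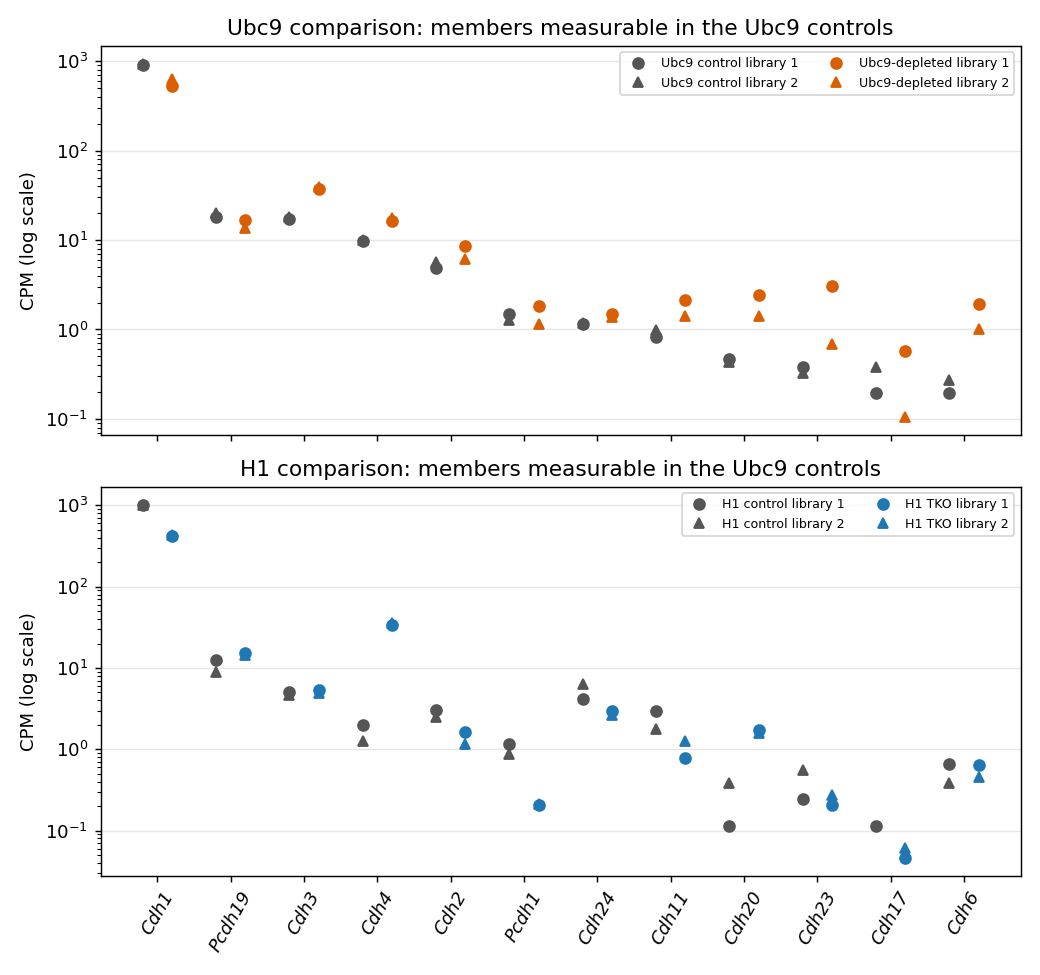
CPM (log scale) of the 12 members measurable in the Ubc9 controls, in each library of the Ubc9 comparison (upper panel) and of the H1 comparison (lower panel); grey marks are controls, coloured marks depleted or knockout cells, circles library 1 and triangles library 2, and a member with 0 counts is not drawn (Cdh17 in H1 control library 2). Cdh1 lies lower and Cdh4 higher in the treated libraries of both panels, whereas Cdh3 is apart only in the upper one, at 36.7 and 38.9 against 17.4 and 18.3 CPM.

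Cdh6, Cdh20 and Cdh23, also measurable, rose from low levels. Cdh6 (K-cadherin, of kidney and neural crest) had 0.196 and 0.272 CPM in the controls and 1.95 and 1.01 CPM after depletion, a log2 fold change of 2.66 ± 0.70 (SE; adjusted p = 0.00396, edgeR). Cdh20 had 0.473 and 0.435 CPM in the controls and 2.42 and 1.40 CPM after depletion, a log2 fold change of 2.07 ± 0.59 (SE; adjusted p = 0.00684, edgeR). Cdh23, a tip-link protein of hair cells, had 0.381 and 0.326 CPM in the controls and 3.06 and 0.694 CPM after depletion. In all 3 the depleted libraries lay above the controls, with library 1 higher than library 2. Without library 1, Cdh6 and Cdh20 still passed (adjusted p = 1.57e-04 and 2.48e-04, edgeR) and Cdh23 did not: its log2 fold change went from 2.41 (adjusted p = 0.00583, edgeR) to 0.96 (adjusted p = 0.124, edgeR). None of the 3 passed with either control left out.

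Pcdh19, a delta-2 protocadherin that forms complexes with N-cadherin, was the one protocadherin at a level near those of Cdh3 and Cdh4. It had 18.2 and 20.3 CPM in the controls and 16.6 and 13.8 CPM after depletion, and the groups did not overlap. The log2 fold change was -0.34 ± 0.11 (SE; adjusted p = 0.0227, edgeR); it missed the threshold without Ubc9-WT library 2 (adjusted p = 0.309, edgeR) and without depleted library 2 (adjusted p = 0.0641, edgeR). Scaled by library totals alone, where the median over all genes moves from 0.061 to 0.25, it was -0.14 and did not pass, nor did it pass by DESeq2. The 4 measurable members that did not pass were Cdh11, Cdh17, Cdh24 and Pcdh1. Cdh11 (OB-cadherin, mesenchymal) had 0.834 and 0.999 CPM in the controls and 2.13 and 1.43 CPM after depletion, and Cdh17 (LI-cadherin, intestinal) had 0.196 and 0.380 against 0.579 and 0.105 CPM, with library 1 above and library 2 below both controls. Cdh24 and Pcdh1 had log2 fold changes of 0.30 ± 0.52 and 0.11 ± 0.50 (SE; adjusted p = 0.672 and 0.880, edgeR).

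The 250 bases before the RefSeq start (GRCm38.p6) are shown for Cdh20, which rose with either depleted library left out and also in the H1 comparison below, and for Pcdh19, the protocadherin that fell. Capitals mark CG dinucleotides, of which Cdh20 (chr1:104768270-104768519, plus strand) has 10 and Pcdh19 (chrX:133688994-133689243, minus strand) has 16.
Cdh20: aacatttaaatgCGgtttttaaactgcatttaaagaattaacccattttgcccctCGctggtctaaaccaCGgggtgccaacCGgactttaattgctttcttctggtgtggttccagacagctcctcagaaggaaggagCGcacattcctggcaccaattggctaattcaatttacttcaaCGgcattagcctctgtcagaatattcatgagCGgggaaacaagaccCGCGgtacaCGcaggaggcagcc
Pcdh19: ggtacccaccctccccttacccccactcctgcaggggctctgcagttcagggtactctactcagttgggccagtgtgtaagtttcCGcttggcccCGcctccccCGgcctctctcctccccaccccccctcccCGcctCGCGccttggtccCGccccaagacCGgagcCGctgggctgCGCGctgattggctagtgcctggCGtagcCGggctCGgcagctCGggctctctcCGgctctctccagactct

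The 23 near-silent members, 13 cadherins and 10 protocadherins, had 0 to 14 counts in either Ubc9-WT library. In depleted library 1 every one of them had 39 or more counts, up to 560, and in depleted library 2 they had 1 to 64. Each was higher in CPM in depleted library 1 than in library 2, with a median ratio of 8.39 and a range of 1.09 to 130. The same held for 86.6% of the 9084 genes that were near-silent by the same limit. At least 10 counts were reached by 23 of 23 members in library 1 and 12 of 23 in library 2, against 61.8% and 10.5% of all near-silent genes. The members are long, with a median exonic length of 6058 bases against 1855, and per kilobase their median level in library 1 was 0.203 CPM against 0.107. Across near-silent genes, Spearman's rho between CPM in library 1 and exonic length was 0.56 over 8611 genes and 0.32 over the 23 members, a description of points that share a library. The part of library 1, or of gene length, in these rises was not tested.

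**Figure D2:**
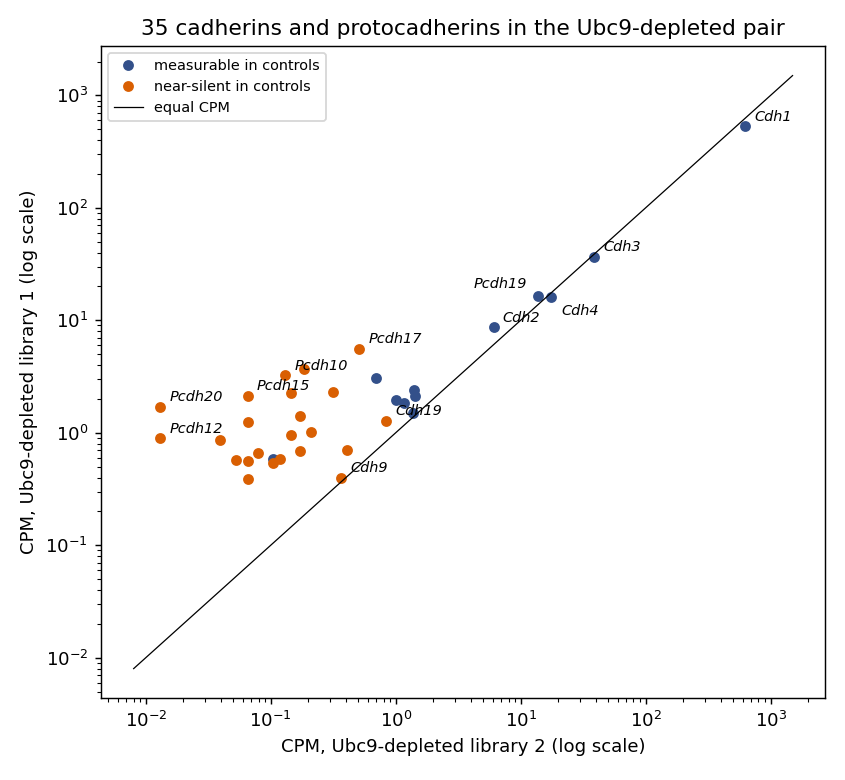
CPM in Ubc9-depleted library 1 (vertical) against Ubc9-depleted library 2 (horizontal), both on log scales, for all 35 members; the line marks equal CPM, blue points are measurable and orange points near-silent in the controls. Every orange point lies above the line, by 1.09-fold for Cdh9 up to 130-fold for Pcdh20, while Cdh1, Cdh3 and Cdh4 lie slightly below it.

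Library 2 by itself lay above both controls for 19 of the 23 near-silent members, beside 36.4% of all near-silent genes. Only 14 of the 23 passed the filter on low counts, and 12 of these rose; a member whose control counts are near 0 passes that filter through the depleted libraries, so these calls are a description and no count over them is read further. Without library 1, the higher calls among the 13 tested were those of Cdh9, Cdh12, Cdh19, Pcdh8 and Pcdh17, likewise a description. Pcdh17, a delta-2 protocadherin of basal ganglia circuits, had 5 and 2 counts in the controls and 560 and 39 in the depleted libraries. Library 2 was 13.8-fold above the controls (95% counting interval 6.11 to 36.6), and the test without library 1 gave an adjusted p of 4.04e-05 (edgeR). Pcdh8, which acts in somite formation and at synapses, had 2 and 0 counts against 233 and 24; library 2 was 29.7-fold above the controls (95% counting interval 7.38 to 260; adjusted p without library 1 = 1.92e-04, edgeR). With both libraries the log2 fold changes were 6.32 ± 0.86 for Pcdh17 and 6.80 ± 1.17 for Pcdh8 (SE; adjusted p = 1.02e-06 and 4.13e-05, edgeR). In both genes all depleted counts exceeded all control counts, and library 1 was many times library 2.

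Cdh19 and Cdh9 differed from those 2 in that their depleted libraries were closer together. Cdh19, of the Schwann cell lineage, had 14 and 2 counts in the controls and 128 and 64 after depletion, a log2 fold change of 3.65 ± 0.92 (SE; adjusted p = 0.00279, edgeR). Library 2 was 9.91-fold above the controls (95% counting interval 5.66 to 18.4). Cdh9, a synaptic type II cadherin, had 2 and 3 counts against 40 and 28, a log2 fold change of 3.79 ± 1.22 (SE; adjusted p = 0.0164, edgeR), and library 2 was 13.9-fold above the controls (95% counting interval 5.29 to 46.0). Both depleted libraries exceeded both controls in each gene. Neither call held without Ubc9-WT library 1 (adjusted p = 0.0596 for Cdh19 and 0.631 for Cdh9, edgeR) or without Ubc9-WT library 2 (0.355 and 0.613), and that of Cdh9 was also lost by DESeq2 (adjusted p = 0.0534). Intervals on counts cover counting error only.

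The remaining 8 near-silent members that passed with both libraries did not pass, or were not tested, once library 1 was left out. They were the protocadherins Pcdh7, Pcdh9, Pcdh10 and Pcdh18 and the cadherins Cdh5, Cdh10, Cdh18 and Cdh26. Pcdh10 had 2 and 2 counts in the controls and 325 and 10 after depletion, and Pcdh7 had 4 and 4 against 368 and 14. Pcdh18 had 2 and 2 counts against 227 and 11, and Pcdh9 had 1 and 0 against 141 and 13. These 4 protocadherins gave far more counts in library 1 than anywhere else, with library 2 a few counts above the controls. Cdh5, the endothelial cadherin, had 0 and 6 counts against 95 and 11, and Cdh10 had 2 and 6 against 69 and 13. Cdh18 had 14 and 2 counts against 102 and 16, and Cdh26 had 6 and 0 against 59 and 9. With both libraries their fitted log2 fold changes ran from 2.87 (Cdh18) to 6.90 (Pcdh9), with adjusted p from 6.19e-05 (Pcdh10) to 0.0413 (Cdh26) by edgeR. Their adjusted p without library 1 ran from 0.0725 (Pcdh18) to 0.251 (Cdh18) by edgeR, and Pcdh9 and Pcdh10 were not tested there. The 8 endothelial markers summed to 47.9 and 45.2 CPM in the controls and 52.9 and 52.1 CPM after depletion, with Emcn at 0 in each library but depleted library 1. Within that list Tie1 rose by 3.05 and Flt1 by 2.33 on the log2 scale (adjusted p = 3.22e-10 and 8.51e-07, edgeR) while Vwf fell by 0.83. The part of Tie1 and Flt1 in the Cdh5 result was not tested. Markers of the 2-cell-like state summed to 19.4 and 17.3 CPM in the controls and 415 and 450 CPM after depletion. Those of primitive endoderm summed to 84.0 and 74.8 against 61.1 and 61.7 CPM. Lama1 made up most of that sum, with 70.8 and 61.3 against 34.7 and 41.3 CPM. It fell by 0.80 on the log2 scale (adjusted p = 5.16e-06, edgeR). Gata6, Sox17 and Dab2 instead rose by 1.43, 2.03 and 0.61 (adjusted p = 3.29e-04, 0.00842 and 0.00110, edgeR). Foxa2 rose by 3.02, from 0.0309 and 0.0760 CPM in the controls to 0.719 and 0.157 CPM in depleted libraries 1 and 2 (adjusted p = 0.0383, edgeR). Without library 1 the log2 fold change of Foxa2 was 1.54 and its call was lost. The rest of the primitive endoderm markers had no call. The part of either list in these results was not tested.

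**Figure D3:**
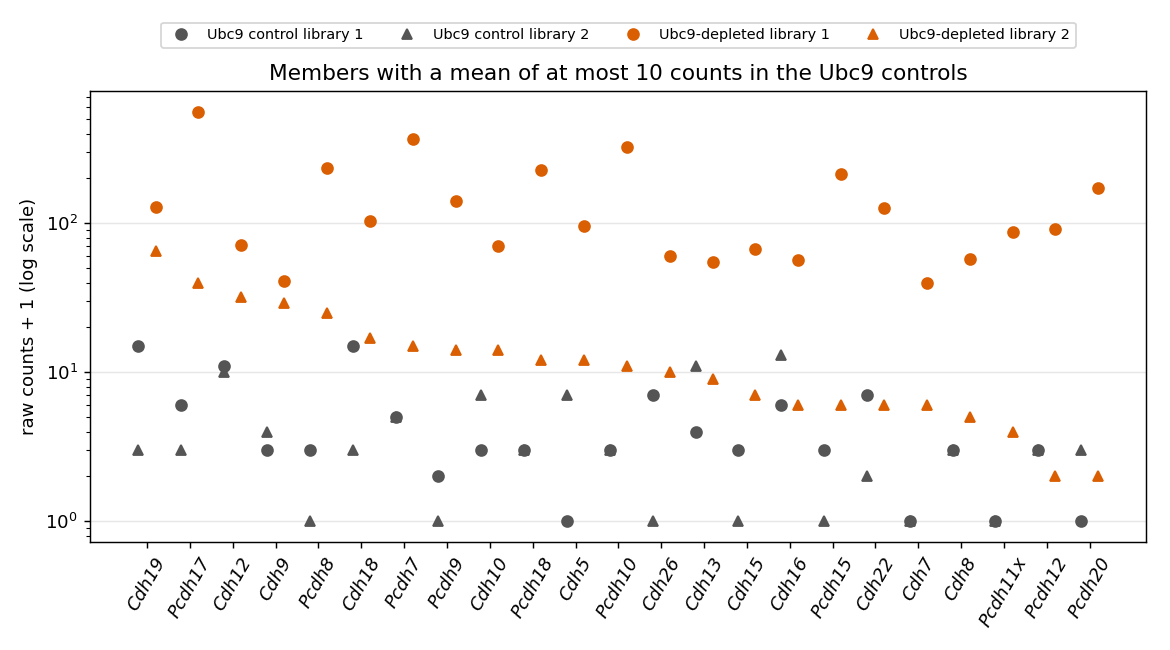
Raw counts plus 1 (log scale) of the 23 near-silent members in the 4 Ubc9 libraries, ordered by their level in depleted library 2; grey marks are controls, orange marks depleted cells, circles library 1 and triangles library 2. Orange circles are at 39 counts or more throughout, whereas orange triangles run from 64 counts down to 1.

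Of the other near-silent members, Cdh12 and Cdh16 were tested with both libraries and did not pass. Cdh12 had 10 and 9 counts in the controls and 70 and 31 after depletion (adjusted p = 0.0503, edgeR), and Cdh16, of the kidney, had 5 and 12 against 56 and 5. Cdh16 therefore lay above the controls in library 1 only, and without that library its log2 fold change was -0.46. The 9 that were not tested were Cdh7, Cdh8, Cdh13, Cdh15, Cdh22, Pcdh11x, Pcdh12, Pcdh15 and Pcdh20. In library 1 they had 39 to 213 counts. Library 2 had 3 counts or fewer for Pcdh11x (3), Pcdh12 (1) and Pcdh20 (1). The authors' counting is not stated to use strand, and 3 of the near-silent members share exonic bases with a gene on the opposite strand that has its own row: Pcdh7 with 4932441J04Rik over 2235 bases, Pcdh10 with 1700027H10Rik over 154 and Cdh8 with Gm15679 over 23. Reads of such pairs cannot be told apart there.

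By class, 7 of the 10 type II cadherins tested, a group expressed largely in neural tissue, passed with both libraries, but 5 of the 7 (Cdh5, Cdh9, Cdh10, Cdh18 and Cdh19) are near-silent and pass the filter through the depleted libraries, so nothing is read from the class count. Of the 5 type II members on chromosome 15, Cdh6, Cdh9 and Cdh12 passed without library 1, whereas Cdh10 and Cdh18 did not.

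The RefSeq promoter table used here held 22 of the 35 members; windows of the others, Cdh1, Cdh2, Cdh3 and Cdh4 among them, were not analysed here. The upstream sequences of the 2 delta-2 protocadherins that kept their calls whichever library was left out lie on chromosome 14, where 5 members lie in all. Pcdh8 (chr14:79771313-79771562, minus strand) has 11 CG dinucleotides, in capitals, and Pcdh17 (chr14:84443313-84443562, plus strand) has 21.
Pcdh8: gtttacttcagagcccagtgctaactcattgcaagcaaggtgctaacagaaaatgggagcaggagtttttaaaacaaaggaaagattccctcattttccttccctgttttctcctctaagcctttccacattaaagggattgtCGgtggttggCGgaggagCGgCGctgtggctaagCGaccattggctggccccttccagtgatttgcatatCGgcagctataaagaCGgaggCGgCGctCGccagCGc
Pcdh17: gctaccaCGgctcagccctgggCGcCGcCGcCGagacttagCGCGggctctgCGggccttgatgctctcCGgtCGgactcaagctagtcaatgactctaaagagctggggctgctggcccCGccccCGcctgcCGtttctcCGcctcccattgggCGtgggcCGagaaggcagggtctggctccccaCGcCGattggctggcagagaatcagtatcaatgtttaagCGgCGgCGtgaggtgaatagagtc
Windows of the same 250 bases held a median of 6 CG dinucleotides over all 27025 promoters (quartiles 2 and 16), 7 over the 13 Cdh promoters (0 to 30) and 16 over the 9 Pcdh promoters (3 to 23). At least 16 were present in 3 of the 13 Cdh and 5 of the 9 Pcdh windows, against 25.6% of all. The E-box CACCTG, which Snail and Zeb repressors bind, was searched on both strands (as CACCTG or CAGGTG) and found in 2 of the 22 windows, those of Cdh7 and Pcdh15, against 17.1% of all; none of the 4 windows printed holds it.

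In H1-TKO cells Cdh4 rose 21.3-fold and Cdh1 fell, while Cdh3 showed no call. Of 15 members tested, 4 rose (Cdh4, Cdh5, Cdh20 and Cdh22) and 1 fell (Cdh1), beside 8.59% and 8.43% of the 14800 genes tested, by edgeR. The median log2 fold change over the 15 members was 0.060, also with Cdh5 at its lower bound, against -0.022 over all genes. Calls for Cdh4, Cdh5 and Cdh22 held whichever of the 4 libraries was left out, and those for Cdh1 and Cdh20 were lost without either H1-TKO library. Here the spread lay in the controls: Spearman's rho of the counts was 0.978 between the 2 controls and 0.994 between the 2 knockout libraries, across genes.

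Cdh4 had 1.97 and 1.26 CPM in the H1_WT libraries and 34.0 and 35.8 CPM in the H1-TKO libraries. Its counts, pooled over the libraries of a group and scaled by their size, were 21.3-fold higher in the knockout. The pairs were far apart and each was close together. The log2 fold change was 4.42 ± 0.30 (SE; adjusted p = 4.94e-04, edgeR). Cdh1 had 1006 and 1020 CPM in the controls and 421 and 433 CPM in the knockout, a log2 fold change of -1.25 ± 0.18 (SE; adjusted p = 0.00483, edgeR). Its groups did not overlap, and the adjusted p without H1-TKO library 1 or 2 was 0.0812 or 0.0904 (edgeR). Cdh3 had 5.02 and 4.66 CPM against 5.43 and 4.94, which overlap, with a log2 fold change of 0.10 ± 0.27 (SE; adjusted p = 0.840, edgeR).

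Cdh22, Cdh20 and Cdh5, all type II, rose from low levels. Cdh22, a cadherin of brain, had 12 and 27 counts (0.197 and 0.524 CPM) in the controls and 157 and 255 counts (3.58 and 3.89 CPM) in the knockout, a log2 fold change of 3.38 ± 0.54 (SE; adjusted p = 0.00728, edgeR). Cdh20 had 0.115 and 0.388 CPM in the controls and 1.71 and 1.60 CPM in the knockout, a log2 fold change of 2.73 ± 0.71 (SE; adjusted p = 0.0393, edgeR). Its adjusted p was 0.130 without H1-TKO library 1 and 0.112 without H1-TKO library 2 (edgeR). Cdh5 had 0 counts in both controls and 56 and 40 in the knockout, at least 32.9-fold higher when 3 counts are allowed over the control group (adjusted p = 0.0123, edgeR). All 3 had both knockout libraries above both controls. The endothelial markers summed to 24.3 and 37.2 CPM in the controls and 13.6 and 16.5 CPM in the knockout, but went both ways: Vwf, the most abundant, fell by 1.79 on the log2 scale (adjusted p = 0.00794, edgeR), while Tie1 rose by 3.03 (adjusted p = 0.0294, edgeR; up to 0.144 with a library left out). Trophectoderm markers summed to 28.4 and 37.9 against 147 and 153 CPM. Most of the gain was in Krt8, at 13.2 and 20.9 against 55.7 and 53.9 CPM, and Krt18, at 5.55 and 7.90 against 72.9 and 79.9 CPM. Tfap2a also rose, by 1.10 on the log2 scale (adjusted p = 0.0211, edgeR). Cdx2 went the other way without a call, at 0.886 and 1.32 against 0.525 and 0.549 CPM, and Elf5 was near 0 throughout. The part of either list in the results was not tested. Fibroblast markers summed to 12.8 and 21.7 CPM against 7.78 and 8.10, with 2 to 4 of the 8 at 0 in each library, and 2-cell-like markers to 6.60 and 3.71 against 85.8 and 90.2 CPM.

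The other 10 members tested did not pass. Cdh2 had 3.07 and 2.48 CPM in the controls and 1.64 and 1.17 CPM in the knockout, without overlap, a log2 fold change of -0.98 ± 0.40 (SE; adjusted p = 0.140, edgeR). Pcdh19 had 12.6 and 8.94 CPM against 15.4 and 14.5, a log2 fold change of 0.47 ± 0.25 (SE; adjusted p = 0.248, edgeR). Cdh24 had 4.19 and 6.34 CPM against 2.94 and 2.65 (adjusted p = 0.107, edgeR), and Pcdh1, an epithelial delta-1 protocadherin, had 1.15 and 0.873 against 0.205 and 0.214 (adjusted p = 0.0616, edgeR). Both lay lower in each knockout library than in each control. So did Cdh11, with 2.97 and 1.77 CPM against 0.776 and 1.27 (adjusted p = 0.138, edgeR). Pcdh17, which gained counts after Ubc9 depletion, had 0 and 28 counts in the H1_WT libraries and 10 and 18 in the H1-TKO libraries, which lie between the controls. The 20 members not tested included 14 with at most 10 counts in every library, among them Cdh7, Pcdh9 and Pcdh20 with 0 in all 4. Cdh26 had 0 counts in both controls and 24 and 7 in the knockout, at least 10.6-fold higher.

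The effects of Ubc9 depletion and H1 loss were compared in 1 fit of all 8 libraries, whose comparisons share no library but differ in cell line and library kit, so that these cannot be told apart from the treatments. Of 28 members tested, the Ubc9 effect was higher for 3 and lower for 1, beside 8.08% and 6.43% of the 16974 genes tested by edgeR. For Cdh4 the Ubc9 effect was lower by a log2 difference of -3.67 ± 0.30 (SE; adjusted p = 5.65e-05, edgeR), and this held whichever of the 8 libraries was left out. For Cdh3 the difference was 0.97 ± 0.23 (SE; adjusted p = 0.0178, edgeR) and for Cdh2 it was 1.45 ± 0.41 (SE; adjusted p = 0.0377, edgeR). The call for Cdh3 was lost without any 1 of the 4 Ubc9 libraries or the 2 H1-TKO libraries, and that for Cdh2 without depleted library 1, either Ubc9-WT library or H1-TKO library 2. The third, Pcdh18, had no counts in H1-TKO cells, and its call was lost without depleted library 1 or H1_WT library 1. For Cdh1, lower in both, the difference was 0.57 ± 0.23 (SE) and did not pass (adjusted p = 0.122, edgeR). By DESeq2 the calls for Cdh2 and Cdh3 were lost (adjusted p = 0.0605 and 0.0531), as was that for Pcdh18 under library totals. Without depleted library 1 the call for Cdh4 was the one of the 4 that held, where 4.26% of all genes had a higher and 3.34% a lower Ubc9 effect.

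**Figure D4:**
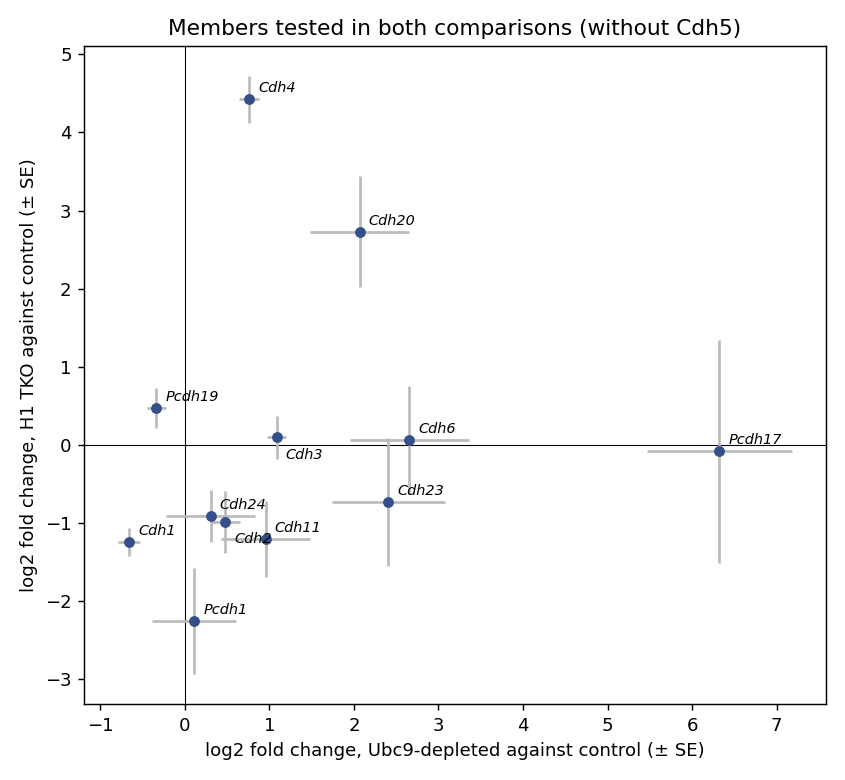
Log2 fold change in H1-TKO cells (vertical) against log2 fold change in Ubc9-depleted cells (horizontal), with standard errors, for the 12 members tested in both comparisons other than Cdh5, whose H1 controls had 0 counts. Cdh1 is below 0 on both axes, Cdh20 and Cdh4 are above 0 on both, and Cdh4 lies at 4.42 on the vertical and 0.76 on the horizontal axis.

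Of 9 catenins and catenin partners tested, 2 fell and none rose in Ubc9-depleted cells (median log2 fold change -0.27), beside 15.0% and 21.1% of all genes. In H1-TKO cells 1 rose and 1 fell (median -0.13), beside 8.59% and 8.43%. Ctnnb1 (beta-catenin) had a log2 fold change of -0.29 after Ubc9 depletion and 0.16 in H1-TKO cells (adjusted p = 0.0903 and 0.647, edgeR), Ctnna1 had -0.27 and 0.034, and Ctnnd1 (p120-catenin) had -0.17 and -0.13; none of these passed. Jup, plakoglobin, had 106 and 110 CPM in the Ubc9-WT libraries and 79.6 and 77.7 CPM after depletion, a log2 fold change of -0.46 ± 0.12 (SE; adjusted p = 0.00274, edgeR). In the H1 table Jup had 125 and 248 CPM in the controls and 602 and 592 CPM in the knockout, a log2 fold change of 1.68 ± 0.32 (SE; adjusted p = 0.0134, edgeR). Arvcf, a p120 relative, fell by 0.58 on the log2 scale in Ubc9-depleted cells, and Ctnnd2 fell by 1.28 in H1-TKO cells. The Jup call in Ubc9-depleted cells was lost without either control (adjusted p up to 0.189, edgeR), and that of Ctnnd2 without either knockout library (up to 0.206).

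Among 15 tested transcription regulators of cadherin genes, 5 rose and 2 fell in Ubc9-depleted cells, beside 21.1% and 15.0% of all genes, and 6 and 2 without library 1, beside 19.0% and 15.3%. In H1-TKO cells 4 rose and 1 fell, beside 8.59% and 8.43%. Snai1, a repressor of Cdh1, had 1.68 and 1.72 CPM in the Ubc9-WT libraries and 3.79 and 4.92 CPM after depletion, a log2 fold change of 1.36 ± 0.29 (SE; adjusted p = 5.77e-04, edgeR; up to 0.0814 without either control). In the H1 table it had 0.640 and 2.44 CPM in the controls and 34.5 and 39.7 CPM in the knockout, a log2 fold change of 4.60 ± 0.56 (SE; adjusted p = 0.00258, edgeR). Snai1 was thus higher in both comparisons in which Cdh1 was lower; its part in the Cdh1 result was not tested. Snai2 rose by 1.76 ± 0.27 (SE) and Twist1 by 1.45 ± 0.28 (SE) in Ubc9-depleted cells on the log2 scale, and both calls held with each library left out. Zeb1 had log2 fold changes of 0.034 and 0.30 and passed in neither. From under 1 CPM in the Ubc9-WT libraries, Snai3 and Zeb2 rose after depletion by 4.01 and 2.37 (adjusted p = 0.00210 and 0.0108, edgeR). Without depleted library 1 their log2 fold changes were 3.94 and 0.71. Grhl3 fell by 0.33 after Ubc9 depletion (adjusted p = 0.0162, edgeR). Ovol1 rose by 3.25 in H1-TKO cells, from 0.0821 and 0.136 CPM in the controls (adjusted p = 0.0289, edgeR). Esrp2, an epithelial splicing factor, fell by 0.74 after Ubc9 depletion, a call lost without either control. In H1-TKO cells Grhl2, an activator of Cdh1, rose by 2.58 ± 0.41 (SE; adjusted p = 0.00683, edgeR) and Ovol2 fell by 1.84, and both calls held with each library left out; Snai3 rose by 1.37, a call lost without either knockout library.

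**Figure D5:**
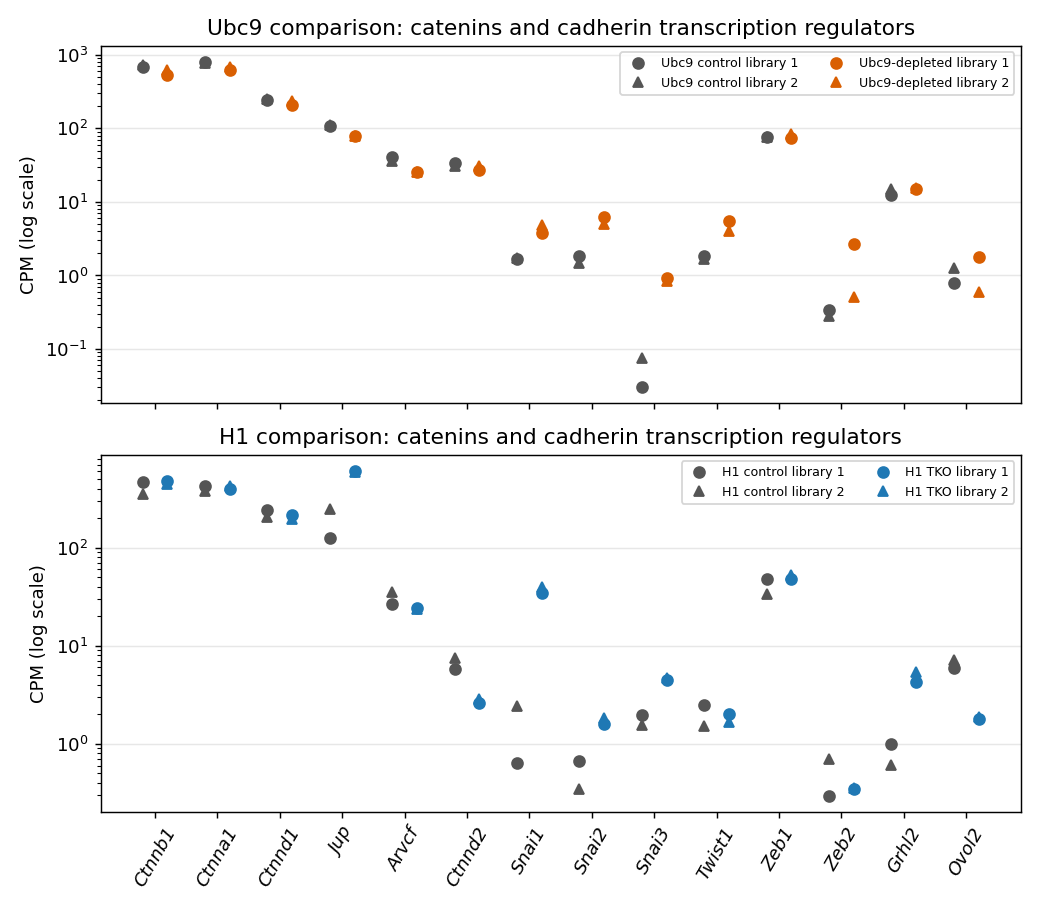
CPM (log scale) of catenins (left) and transcription regulators of cadherin genes (right) in each library of the Ubc9 comparison (upper panel) and the H1 comparison (lower panel); grey marks are controls, coloured marks depleted or knockout cells, circles library 1 and triangles library 2. Snai1 lies higher in the treated libraries of both panels, at 3.79 and 4.92 CPM after Ubc9 depletion and 34.5 and 39.7 CPM in H1-TKO cells, and Jup lies lower in the upper and higher in the lower panel.

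Of 17 tested members of the wider cadherin superfamily, 10 rose and 3 fell in Ubc9-depleted cells, with a median log2 fold change of 1.42, and 8 rose and 2 fell without library 1. Of all genes, 21.1% rose and 15.0% fell after Ubc9 depletion (19.0% and 15.3% without library 1), and 8.59% rose and 8.43% fell in H1-TKO cells, shares against which the nectins and proteases are also to be read. Fat3, a giant cadherin of neurons, had 0.0515 and 0.0435 CPM in the controls and 8.44 and 1.70 CPM after depletion, so that it was far above the controls in both depleted libraries. Like Fat3, Dchs1 (0.0206 and 0.0652 CPM) and Dsg3 (0.0309 and 0.0652 CPM) were near 0 in the controls and rose. Genes of this kind pass the filter through the depleted libraries, so the counts and median of this list are a description. The receptor kinase Ret, which carries cadherin repeats, rose by 1.62 ± 0.30 (SE) after Ubc9 depletion and by 2.52 ± 0.38 (SE) in H1-TKO cells on the log2 scale, and both calls held with each library left out. Dsc2 rose by 1.42 ± 0.48 (SE; adjusted p = 0.0226, edgeR) after Ubc9 depletion. Without depleted library 1 its log2 fold change was 0.70 and the call was lost. In H1-TKO cells Dsc2 rose by 2.29 ± 0.48 (SE; adjusted p = 0.0185, edgeR). Celsr2 rose by 0.97 ± 0.14 (SE) after Ubc9 depletion. The 3 that fell there were Dsg2, Clstn1 and Clstn3, by log2 fold changes of -0.68, -0.36 and -0.38 (adjusted p = 1.81e-04, 0.0235 and 0.0310, edgeR). Dsg2 had 371 and 377 CPM in the Ubc9-WT libraries and 212 and 256 CPM in the depleted ones. Without depleted library 1 the log2 fold changes of these 3 genes were -0.55, -0.24 and -0.52. In H1-TKO cells 3 of 13 tested rose and 1 fell. Nectins, which join the same junctions, and the related Pvr gave 2 rises and 2 falls of 5 tested after Ubc9 depletion and 2 falls of 5 in H1-TKO cells. Pvrl4 rose by 1.90 ± 0.37 after Ubc9 depletion (SE; adjusted p = 1.62e-04, edgeR) and had no call in H1-TKO cells. Pvrl1 rose by 0.29 after Ubc9 depletion, and Pvrl2 fell by 0.40 there and by 1.06 in H1-TKO cells (adjusted p = 0.0350, 0.00828 and 0.0194, edgeR). Without depleted library 1 the Ubc9 log2 fold changes of Pvrl1 and Pvrl2 were 0.23 and -0.28, and neither kept its call, whereas Pvrl4 and Pvr did. Pvr was lower in both, by log2 fold changes of -0.66 ± 0.11 and -1.32 ± 0.22 (SE; adjusted p = 3.32e-05 and 0.00846, edgeR). The H1 call of Pvr was lost without either knockout library. Of 8 proteases and endocytic factors that act on cadherins, 1 rose and 1 fell after Ubc9 depletion and 1 fell in H1-TKO cells. Mmp14, a membrane metalloproteinase, fell from 16.2 and 19.6 CPM to 1.55 and 1.24 CPM in H1-TKO cells, a log2 fold change of -3.68 ± 0.29 (SE; adjusted p = 6.52e-04, edgeR). After Ubc9 depletion Mmp14 went the other way, by 0.80 ± 0.28 (SE; adjusted p = 0.0285, edgeR), and Cbll1 fell by 0.30 (adjusted p = 0.0447, edgeR). Without depleted library 1 the log2 fold changes of Mmp14 and Cbll1 were 0.71 and -0.28, and Cbll1 lost its call.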

How the data were processed

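Deposited by the authors were 2 tables of raw counts per gene, 1 per comparison, with 24421 symbols each. Per the submitters' processing notes, cutadapt, STAR, HTSeq, DESeq2 and the build mm10 were used; their versions, the annotation and the strand setting were not given in the sources used here. PolyA RNA was, per the labels, made into libraries with ScriptSeq v2 (Ubc9) or Lexogen SENSE V2 (H1).

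Each table was fitted on its own, and the difference of effects in 1 fit of all 8 libraries, with edgeR 4.0.16 (R 4.3.3): filterByExpr (minimum count 10, total 15), TMM, quasi-likelihood test, Benjamini-Hochberg over all genes tested, threshold 0.05. Scripts were tested on simulated data. As alternatives, DESeq2 1.42.0 was run, and edgeR with RLE factors, with no scaling beyond library totals, without the filter, with a replicate block and with each library left out. Gene positions and exonic lengths came from GENCODE M21 (GRCm38), which matched all 35 members, and upstream sequences from RefSeq (GRCm38.p6). Per-library values are CPM over TMM-scaled totals. Counting intervals are exact at 95%.

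The members and lists were chosen with earlier results of these data known. Named in full are Cdh1, Cdh2 and Cdh3, members that passed a test or reached a mean of 5 CPM in a group, Ctnnb1, Ctnna1 and Ctnnd1, and up to 4 passing genes per adhesion list, those of largest fold change among genes averaging 1 CPM or more. Zeb1, Zeb2, Ovol1, Grhl3, Dchs1, Dsg2, Dsg3, Clstn1, Clstn3, Snai3 after Ubc9 depletion, single marker genes and the values of members that did not pass were added after seeing them. One check of the labels is not reported here.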

Additional observations from a re-analysis of the deposited data

Results flagged for a closer look

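For 4 members the log2 effect of Ubc9 depletion differed from that of H1 loss by the edgeR test of the difference itself. Cdh4 rose in both but less after Ubc9 depletion, with a difference of -3.67, and kept its call whichever library was left out. Cdh3 rose after Ubc9 depletion and showed no call in H1-TKO cells, a difference of 0.97, whose call was kept without either H1_WT library and lost without any other library. Cdh2, with a difference of 1.45, was higher in the Ubc9-depleted libraries and lower, without a call, in the H1-TKO libraries; that call was lost without depleted library 1, either Ubc9-WT library or H1-TKO library 2. Pcdh18 gave a fitted difference of 11.58, a value that depends on the prior count, since both H1-TKO libraries had 0 counts and the H1_WT libraries 11 and 0; in the Ubc9 table it had 2 and 2 counts in the controls and 227 and 11 after depletion, and the call was lost without depleted library 1 or H1_WT library 1. The calls for Cdh2 and Cdh3 were also lost by DESeq2, and that for Pcdh18 when scaled by library totals alone, so that Cdh4 was the one of the 4 to keep its call under DESeq2, RLE factors, library totals and no filter. Cell line and library kit differ between the comparisons and cannot be told apart from the treatments.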

How the results depend on the processing

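In the Ubc9 comparison the count of members that rose was 18 of 26 tested, beside 21.1% of all genes. It was 15 to 19 under DESeq2, RLE factors, library totals, no filter or the replicate block, beside 13.9% to 24.1% of all genes. DESeq2 and the fit without a filter tested all 35 members. Leaving out 1 library gave 8 to 30: 9 and 8 without Ubc9-WT library 1 and 2, 9 without depleted library 1 and 30 without depleted library 2. The count that fell was 2, 1 under DESeq2 and library totals, and 0 to 2 with a library left out. In the H1 comparison the count that rose was 4, and 3 to 7 with a library left out (7 without H1_WT library 1); the count that fell was 1, 2 under DESeq2 and without a filter, and 0 to 4 with a library left out (0 without either H1-TKO library, 2 and 4 without H1_WT library 1 and 2). For the difference of effects the count of higher members was 3, and 0 to 8 with a library left out (0 without depleted library 1, 6 and 8 without H1_WT library 1 and 2); the count of lower members was 1, 2 under DESeq2, RLE factors, no filter and the replicate block, and 1 to 2 with a library left out. With a library left out, the number of members tested and the share of all genes called changed too. In the Ubc9 fits that share went up without depleted library 2 and down without either Ubc9-WT library. In the H1 fits it went up without either H1_WT library and down without either H1-TKO library. These counts are therefore not read as results about the family. The cause of these shifts was not tested.

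Same-numbered libraries deviated with a correlation of -0.011 (Ubc9) and 0.20 (H1), and the labels give the numbers no shared origin. With the replicate block 17 members rose and 2 fell in the Ubc9 comparison, 4 rose and 1 fell in the H1 comparison, and 4 were higher and 2 lower in the difference.

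Of the 20 Ubc9 calls, 14 were kept under DESeq2, 20 with RLE factors, 16 with library totals, 14 without a filter and 19 with the replicate block (Cdh10 lost); all 5 H1 calls were kept under each of these. Lost without a filter were Cdh2, Cdh5, Cdh9, Cdh10, Cdh18 and Cdh26.

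No called member changed direction in either comparison under these alternatives. Among members without a call, Cdh16 in the Ubc9 comparison ran from -0.46 to 2.54 with a library left out, Cdh17 from -1.44 to 0.93 (-0.063 with the replicate block) and Pcdh1 from -0.26 to 0.32. In the H1 comparison Cdh6 ran from -0.27 to 0.49 (-0.039 with library totals) and Pcdh17, with 0 and 28 counts in the controls, from -1.09 to 6.85 (0.97 with the replicate block). Depth limits the near-silent members: with 0 to 14 control counts, their fold changes carry wide counting intervals, and those not tested are given as counts only.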
